A study of Mus musculus with 2 samples.

Results

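Among the miRNA genes inside or near imprinted genes outside chromosome 12, 5 were followed in the heart of old mice: Mir335, Mir483, Mir675, Mir296 and Mir298. They were taken by name from the 2202 miRNA genes of the deposited count tables, for their hosts (Mest, Igf2 and H19) or their region (Gnas). Earlier results of these data were known when this choice was made. The tissue was the heart of male adult mice aged 18 to 20 months of the hybrid strain B6CASTF1/J, with no treatment or genotype other than the strain in the labels. There were 2 small RNA libraries of this 1 group, replicate 1 with 3037063 and replicate 2 with 5284446 sense-strand reads in miRNA genes. Per the labels these were biological replicates with separate biosamples and 1 donor record, and the labels do not state how many animals were used. The p-values below measure counting error or the spread between these libraries, which may be technical.

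MiRNAs are small RNAs cut from hairpins, and their seed (bases 2 to 8) pairs with messenger RNAs that are then repressed. Imprinted genes are read mainly from the chromosome of 1 parent, and a miRNA inside such a gene is usually made from the same transcript. Mest, a gene of mesoderm, and Igf2, which encodes a fetal growth factor, are read from the paternal chromosome. H19, a long noncoding RNA abundant before birth and low in most tissues afterwards, is read from the maternal one. Mir296 and Mir298 belong to the Gnas cluster and are known from a paternal transcript antisense to Gnas. The tables count reads per hairpin, without alleles, so parental origin could not be read from them.

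The hairpins are shown because each count covers a whole hairpin and cannot tell its arms apart. All are RefSeq sequences on GRCm38.p6, 5′ to 3′, and capitals mark the mature arms, the 5p arm first. Coordinates and sequences of all 5 were the same in RefSeq and in GENCODE M21.
Mir335: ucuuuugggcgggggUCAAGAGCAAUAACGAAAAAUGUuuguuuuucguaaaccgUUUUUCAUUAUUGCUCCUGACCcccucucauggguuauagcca
Mir483: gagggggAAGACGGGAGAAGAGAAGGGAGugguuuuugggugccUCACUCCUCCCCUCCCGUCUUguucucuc
Mir298: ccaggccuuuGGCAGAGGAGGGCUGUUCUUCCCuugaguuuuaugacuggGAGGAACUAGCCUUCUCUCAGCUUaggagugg
Mir296: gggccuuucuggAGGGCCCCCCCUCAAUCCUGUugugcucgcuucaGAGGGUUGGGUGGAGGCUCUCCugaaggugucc
Mir675: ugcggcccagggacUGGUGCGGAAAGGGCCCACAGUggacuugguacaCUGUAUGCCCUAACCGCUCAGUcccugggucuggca

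The mature miRNAs are shown with the seed in capitals, to compare what each could recognise.
miR-335-5p: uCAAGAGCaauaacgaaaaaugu
miR-335-3p: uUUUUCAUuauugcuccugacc
miR-483-5p: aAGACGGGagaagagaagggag
miR-483-3p: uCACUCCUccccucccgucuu
miR-298-5p: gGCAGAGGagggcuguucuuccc
miR-298-3p: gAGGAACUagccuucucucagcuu
miR-296-5p: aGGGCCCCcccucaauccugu
miR-296-3p: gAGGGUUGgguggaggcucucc
miR-675-5p: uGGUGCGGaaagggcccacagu
miR-675-3p: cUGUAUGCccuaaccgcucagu

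No seed was shared: the 10 arms had 10 different seeds, and none of the other mature mouse miRNAs in the RefSeq table (1679 names in all) had any of them. The set is thus grouped by its hosts or region and not by sequence. The arms of miR-335 were the poorest in G and C (30.4% in 5p and 36.4% in 3p), and those of miR-296 the richest (66.7% and 68.2%). The longest exact stretch that a hairpin shared with any other hairpin of the tables, on either strand, ran from 11 bases (Mir675) to 14 bases (Mir335). The shortest mature arm has 21 bases, so no arm had an exact copy among the counted hairpins. Across all GENCODE transcripts, the arms of miR-675 matched H19, its host, and the other 8 arms matched no other gene. Folded with RNAfold, all 5 hairpins had a lower energy per 100 bases than the median of the 1174 genes whose names start with Mir (-40.8 kcal/mol). The values ran from -45.2 for Mir335 to -66.7 for Mir675.

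By position, the set falls into genes inside a host and genes beside one. Mir335 (ENSMUSG00000065501.1; GRCm38 chromosome 6, 30741299 to 30741396, plus strand) lies in an intron of Mest. Mir483 (ENSMUSG00000070140.1; chromosome 7, 142654924 to 142654996, minus strand) lies in an intron of Igf2 and of the overlapping gene Gm49394. Mir675 (ENSMUSG00000076275.1; chromosome 7, 142577064 to 142577147, minus strand) lies inside an exon in 3 of the 7 annotated transcripts of H19, 77776 bases from Mir483. Mir298 (ENSMUSG00000065410.1; chromosome 2, 174267504 to 174267585) and Mir296 (ENSMUSG00000065521.1; chromosome 2, 174267047 to 174267125) are both on the minus strand, 378 bases apart. They overlap no annotated gene in GENCODE M21. The nearest one, Nespas, the transcript antisense to Gnas, is on the same strand, and its annotated 3′ end lies 13651 bases from Mir298. Gnas itself lies 16734 bases away.

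The levels ran from Mir335, above most detected miRNA genes of the heart, to Mir675 at the edge of detection. Levels are reads per 1000000 sense-strand reads in miRNA genes (CPM), not divided by length, since the hairpins run from 73 to 98 bases. Reads at several places, 40.7% and 32.5% of all reads in replicates 1 and 2, are in no gene's count. Levels and ranks thus compare the counted reads only, and miRNAs with copies elsewhere may be undercounted. A minimum of 10 reads in each library was reached by 4 of the 5 genes, against 14.6% of the 2202 miRNA genes. The same 4 exceeded in both libraries the floor of 3 reads, the level that a count of 0 still allows (0.988 CPM in replicate 1 and 0.568 CPM in replicate 2). Together the 5 genes took 2025 reads (667 CPM) in replicate 1 and 2855 reads (540 CPM) in replicate 2. Mir335 alone gave 89.1% and 87.2% of these.

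**Figure D1:**
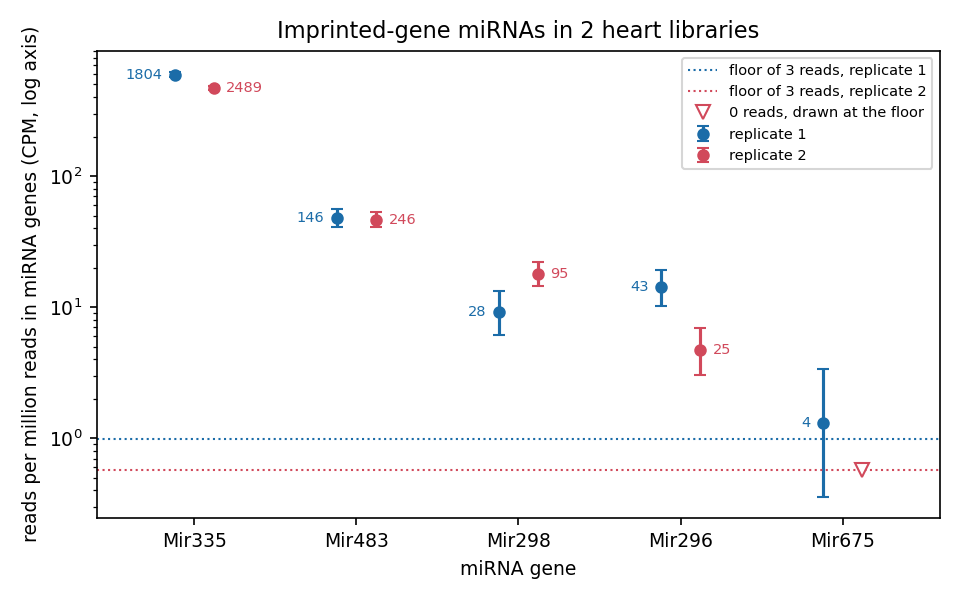
Level of each miRNA gene in both heart libraries, in CPM on a log axis, with the read count beside each point and bars for the exact Poisson 95% interval (counting error only). Dotted lines mark the floor of 3 reads in each library. Mir335 lies far above the others, Mir298 and Mir296 change places between the libraries, and Mir675 has 4 reads and 0 reads, the latter drawn at the floor.

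Mir335, the intronic miRNA of Mest that has been studied in fat tissue and as a suppressor of metastasis, had 1804 reads in replicate 1 and 2489 in replicate 2. These were 594 CPM (95% Poisson interval 567 to 622) and 471 CPM (453 to 490). Replicate 1 was higher, and the counting intervals did not overlap. The mean was 532 ± 87.0 CPM (SD, n = 2), rank 85 of 2202, above 73.8% of the 321 genes that reached 10 reads in each library. Nearest to it in level over both libraries were Mir532, Mir25 and Mir467d, at distances of 0.03, 0.24 and 0.24 in log2(CPM + 1). Mir467d lies inside the imprinted gene Sfmbt2.

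Mir483, from the intron of Igf2, had 146 reads (48.1 CPM, 40.6 to 56.5) in replicate 1 and 246 reads (46.6 CPM, 40.9 to 52.7) in replicate 2. The intervals overlapped almost wholly, and the counts were 48.7 and 82.0 times the floor of 3 reads. Its mean of 47.3 ± 1.08 CPM (SD, n = 2) was rank 175, below the median of 67.4 CPM over the 321 genes. The SD was 2.27% of the mean, the smallest of the set, against 16.3% for Mir335, 45.5% for Mir298 and 70.6% for Mir296. Its nearest genes in level were Mir3058, Mir188 and Mir184, at 0.03, 0.20 and 0.21.

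Mir675, cut from H19 and known for limiting growth of the placenta, had 4 reads in replicate 1 and 0 in replicate 2. The 4 reads were 1.32 CPM, with a 95% Poisson interval of 0.359 to 3.37 that takes in the floors of both libraries. A count of 0 in replicate 2 allows a level of up to 0.568 CPM. A level of Mir675 above the floor was therefore not established in either library at this depth. Because the hairpin is exonic, reads of H19 RNA itself could be counted in it, which was not tested.

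Mir298, studied as a repressor of neuronal messages such as Bace1, had 28 reads (9.22 CPM, 6.13 to 13.3) in replicate 1 and 95 reads (18.0 CPM, 14.5 to 22.0) in replicate 2. Mir296, studied in blood vessel growth and in embryonic stem cells, had 43 reads (14.2 CPM, 10.2 to 19.1) and 25 reads (4.73 CPM, 3.06 to 6.98). The intervals of the libraries did not overlap for either gene, and the higher library was replicate 2 for Mir298 and replicate 1 for Mir296. Means were 13.6 ± 6.19 CPM for Mir298, rank 236, and 9.44 ± 6.67 CPM for Mir296, rank 258 (SD, n = 2 for each). Nearest in level to Mir298 were Mir7-1, Mir201 and Mir6240, at 0.15, 0.22 and 0.28. Nearest to Mir296 were Mir341, Mir211 and Mir667, at 0.18, 0.21 and 0.22. With 2 libraries, nearness says only that the levels were alike in both.

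The order of the levels held in both libraries for 3 of the 4 steps. Mir335 exceeded Mir483 12.4-fold in replicate 1 (95% binomial interval 10.4 to 14.7) and 10.1-fold in replicate 2 (8.87 to 11.6). Mir483 exceeded Mir298 5.21-fold (3.46 to 8.12) and 2.59-fold (2.04 to 3.32). Mir296 exceeded Mir675 10.8-fold in replicate 1 (3.91 to 41.2). In replicate 2, where Mir675 was at 0, the 25 reads of Mir296 were 8.33 times the floor of 3 reads, and the lower limit of the binomial interval was 6.29-fold. The step between Mir298 and Mir296 did not hold: Mir298 had 0.651 times the reads of Mir296 in replicate 1 (0.390 to 1.07) and 3.80 times in replicate 2 (2.42 to 6.16). No test over libraries was made, since 2 libraries cannot give a p below 0.5 in a paired sign-flip test.

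Between the libraries, 3 of the 4 members with enough reads differed beyond counting error. A two-sided exact binomial test set each gene's split of reads between the libraries against the split of the library totals. Its p-values were adjusted by Benjamini-Hochberg over the 424 genes with 10 or more reads in the pair of libraries. Over all 424 it called 52.8%, 21.9% higher in replicate 1 and 30.9% higher in replicate 2. Of the 4 members tested, Mir335 and Mir296 were higher in replicate 1 and Mir298 was higher in replicate 2. The median log2 ratio of replicate 2 to replicate 1 was -0.19 over these 4 and 0.07 over all 424.

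The log2 ratio of Mir296 was -1.58 (95% interval -2.35 to -0.84; adjusted p = 3.29e-05, exact binomial test), which is 2.99-fold higher in replicate 1. Only 16 of the 424 genes, Mir296 included, had a ratio as low or lower. For Mir298 it was 0.96 (0.34 to 1.63; adjusted p = 0.00324, exact binomial test), or 1.95-fold higher in replicate 2. For Mir335 it was -0.33 (-0.42 to -0.25; adjusted p = 4.81e-13, exact binomial test), or 1.26-fold higher in replicate 1. Mir483 was not called, with a ratio of -0.05 (-0.35 to 0.26; adjusted p = 0.844, exact binomial test). Mir675 had too few reads to be tested.

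With 1 spread common to all genes added to counting error, the calls were lost. The edgeR exact test, given the common dispersion of this pair of libraries, called 2.83% of the 424 genes and none of the 4 members, none of which had an unadjusted p under 0.05 in it. Its adjusted p was 0.837 for Mir296 and 1 for Mir298, Mir335 and Mir483. The dispersion came from the same 2 libraries, so it held the differences under test. The loss of calls thus cannot show that the members were alike in both.

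**Figure D2:**
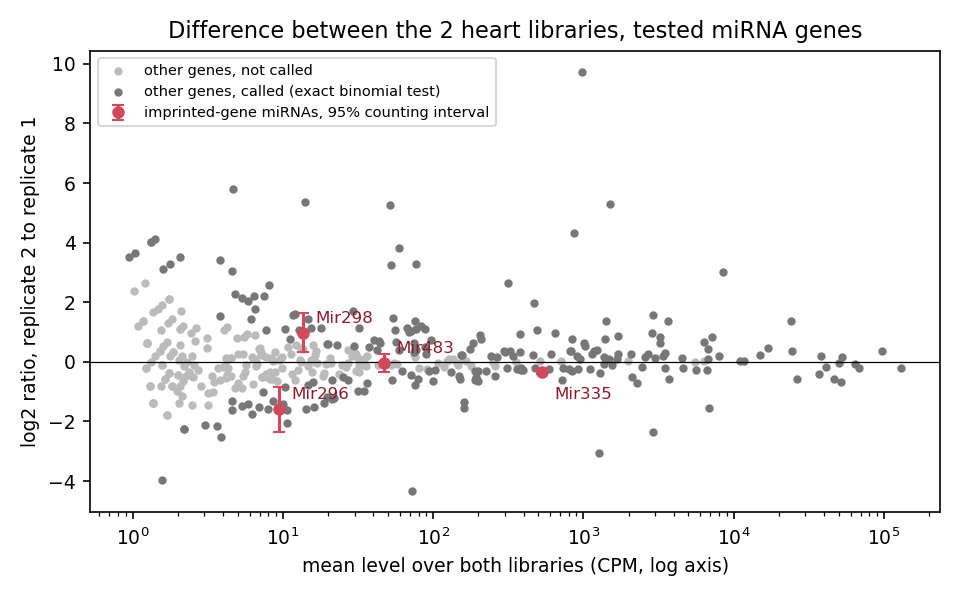
Log2 ratio of replicate 2 to replicate 1 against mean level (CPM, log axis) for the 424 tested miRNA genes, with grey shades for the exact binomial call. Red points are the 4 imprinted-gene miRNAs with their 95% counting intervals: Mir298 lies above 0, Mir296 and Mir335 below, and Mir483 on the line.

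Other miRNAs moved between the libraries as well. The fixed epithelial markers (Mir205, Mir200a, Mir200b, Mir200c, Mir141 and Mir429) all had reads in both libraries and summed to 148 CPM in replicate 1 and 3672 CPM in replicate 2. Most of that gap lay in Mir205 (2.30 and 1963 CPM) and Mir200c (82.6 and 1652 CPM), while Mir200b (32.9 and 21.6 CPM) and Mir429 (19.4 and 12.1 CPM) were lower in replicate 2. The red blood cell markers summed to 8201 and 2542 CPM. Of these, Mir144 (2265 and 271 CPM) and Mir451a (4900 and 948 CPM) were lower in replicate 2 and Mir486 (1035 and 1324 CPM), also made in muscle, was higher. The 8 heart muscle markers all had reads and summed to 10844 and 14812 CPM. Most of that gap lay in Mir208a (5184 and 9154 CPM), while Mir499 was nearly equal at 5559 and 5487 CPM. The counted levels of the rest were far lower and did not all move 1 way. Among them, the Mir1a and Mir133a genes are numbered copies. Reads that map to more than 1 copy are in no gene's count, so these levels may be too low. Mir208b (50.0 and 116 CPM), Mir133a-1 (2.63 and 5.87 CPM) and Mir133a-2 (4.61 and 8.52 CPM) were higher in replicate 2. Mir1a-1 (6.91 and 3.78 CPM) was lower, and Mir1a-2 (27.7 and 26.7 CPM) and Mir133b (9.22 and 9.65 CPM) were nearly equal. The liver pair Mir122 and Mir192 summed to 67.8 and 46.7 CPM, the pancreatic Mir375 had 11.2 and 24.6 CPM, and the 6 brain genes (Mir124a-1 to Mir124a-3 and Mir9-1 to Mir9-3) summed to 0.329 and 0.568 CPM. Among the latter, the 3 Mir124a genes were at 0 in both libraries. The Mir124a and Mir9 genes are numbered copies, and reads at several places are in no gene's count. Their low values thus cannot show that these miRNAs were absent. The part of any of these markers in the differences of Mir335, Mir296 and Mir298 was not tested. In bulk tissue, fewer cells of a type and less RNA per cell cannot be told apart.

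The Gnas cluster pair moved apart, while its summed level was nearly the same in both libraries. Mir296 gave 60.6% of the reads of the pair in replicate 1 (43 of 71 reads; 95% exact binomial interval 48.3 to 72.0) and 20.8% in replicate 2 (25 of 120; 14.0 to 29.2). The ratio of Mir298 to Mir296 thus rose by 2.54 on the log2 scale from replicate 1 to replicate 2 (p = 5.65e-08, two-sided Fisher's exact test, counting error only). This ratio does not depend on how the libraries are scaled. The summed level of both was 23.4 CPM in replicate 1 and 22.7 CPM in replicate 2, a log2 ratio of -0.04 (p = 0.881, exact binomial test of that sum, chosen after its values were seen). Mir483 and Mir675, the pair of the Igf2 and H19 region, had 392 and 4 reads over both libraries, too few for the same test.

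To place the Gnas pair, the same test was run on all 89 pairs of neighbouring miRNA genes on 1 strand within 10000 bases, each with at least 10 reads over both libraries. The ratio within the pair was called in 48.3% of them after Benjamini-Hochberg adjustment over the 89 pairs, where Mir296 and Mir298 had an adjusted p of 2.01e-07 (Fisher's exact test). Pairs that share a gene or a cluster are not independent. The median gap between the log2 ratios of 2 neighbours was 0.62, against 2.54 for Mir296 and Mir298, which ranked 5 of 89. The pairs were not matched for read depth, and counting error widens such gaps where reads are few. The scarcer gene of the Gnas pair had 68 reads over both libraries.

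**Figure D3:**
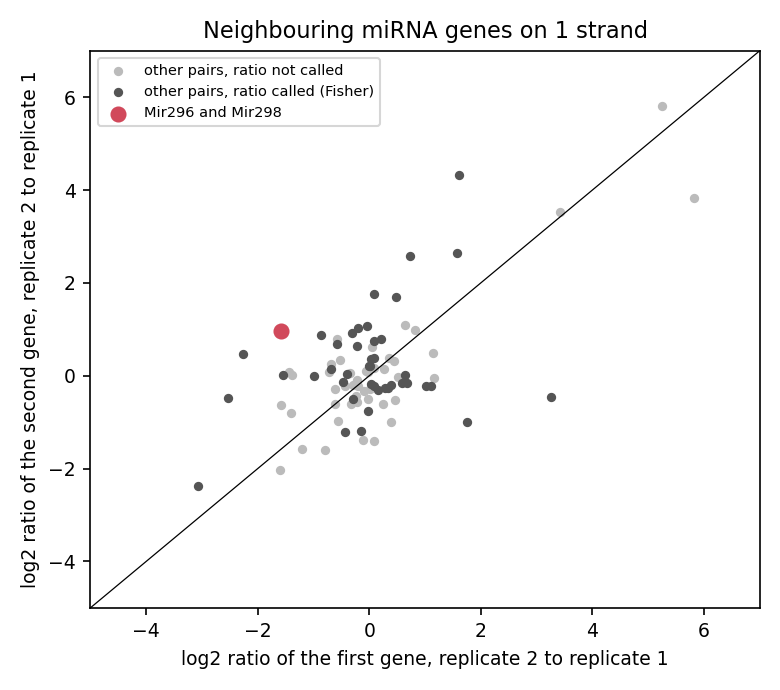
Log2 ratio of replicate 2 to replicate 1 for both genes of 89 neighbouring pairs, the first gene being the one at the lower coordinate, with the line of equal ratios. Dark points are pairs called by Fisher's exact test (adjusted over the 89 pairs), and Mir296 with Mir298 (red) lies in the upper left, at -1.58 and 0.96.

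Few other imprinted genes outside the 2 large miRNA clusters contributed reads. A list of 42 imprinted genes was searched for miRNA genes within their annotated bounds, and 11 of them held any, the 3 hosts Mest, Igf2 and H19 included. Beside these hosts and the large clusters, the search found Mir3099 in Usp29, with 5 and 8 reads, and Gm23134 over Nnat and Blcap, with 0 and 0 reads. The Sfmbt2 intron held 119 miRNA genes, of which 6 reached 10 reads in each library, and summed to 769 and 782 CPM in replicates 1 and 2. The chromosome 12 genes Meg3, Rtl1, Rian and Mirg held 28, of which 15 passed, and summed to 1581 and 1053 CPM. That sum is not the whole chromosome 12 cluster, since miRNA genes outside the annotated bounds were left out. Among those were Mir411 (819 and 1291 reads) and Mir379 (526 and 661 reads). Mir335 alone, at 594 and 471 CPM, was thus below each of these sums. Among the single genes inside the listed hosts, only Mir127 (722 CPM on average, on the strand opposite Rtl1) had a higher mean level than Mir335 (532 CPM). Reads that map to more than 1 place are in none of these sums.

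**Figure D4:**
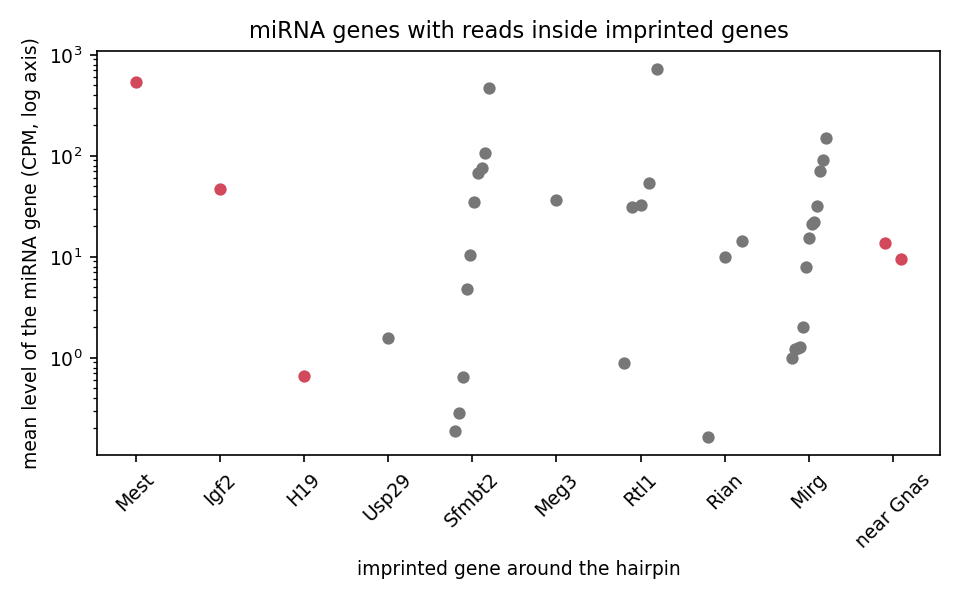
Mean level over both libraries (CPM, log axis) of each miRNA gene with any read inside the listed imprinted genes, by host, with the Gnas region at the right. Red points are Mir335, Mir483, Mir675, Mir298 and Mir296, and grey points the others. Mir335 (532 CPM) stands near the top beside Mir127 (722 CPM) and Mir467d (474 CPM), while Mir675 lies at 0.659 CPM.

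On the strand opposite the 5 hairpins, no reads were counted in either library, and the column for either strand held the same counts as the sense column at all 5.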

How the data were processed

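Small RNA (under 30 bases, per the labels) from 2 heart libraries was analysed. The authors deposited raw read counts per miRNA gene, with build mm10 per the labels and annotation GENCODE M21 per the deposited text. The aligner is not given in the sources used here, nor are the counter and trimming. Of 3 count columns, the single-strand column with more reads in miRNA genes was used as sense. 4 summary lines stayed out of library sizes: unmapped reads were 19.4% and 34.3% of all reads in replicates 1 and 2, reads at several places 40.7% and 32.5%, and reads outside miRNA genes 7.79% and 6.27%. Reads at several places are in no gene's count, and whether alleles of either parent strain lost reads was not tested.

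All 2202 gene IDs matched GENCODE M21, and the 5 members matched RefSeq sequences by symbol. Tests were made in Python 3.11.15 with scipy 1.17.1. edgeR 4.0.16 gave TMM factors, the common dispersion (0.164) and its exact test, and DESeq2 1.42.0 gave size factors only. RNAfold 2.7.2 folded the hairpins. The threshold was an adjusted p of 0.05. The exact binomial and Fisher tests were tried on simulated reads that held counting error alone. That trial does not cover the spread between libraries. Without molecular identifiers, intervals and floors hold counting error alone. No model of group means was possible in 1 group.

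The members and lists were chosen with earlier results of these data known. Named were the 5 members, the 3 genes nearest in log2(CPM + 1) to each member with at least 10 reads (chromosome 18 left out), and, among miRNA genes inside the listed imprinted genes, up to 10 with at least 10 reads in either library, of which those that a comparison rests on are given. Mir3099 and Gm23134 were named after their values were seen. Alternatives were other scalings, the either-strand column, other read minimums, another test and leaving out each library.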

Additional observations from a re-analysis of the deposited data

How the results depend on the processing

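Levels, directions and calls were recomputed under other scalings, the column for either strand, other read minimums, the exact test of edgeR and without each library. TMM and DESeq2 size factors moved no level by more than its SD and changed no call. Scaled to all reads of the tables, a change of denominator alone, the means of Mir335, Mir483 and Mir298 were 159, 14.0 and 3.91 reads per 1000000. In the column for either strand, whose totals are smaller, Mir335 had 718 and Mir483 63.8 CPM. The exact test of edgeR kept the directions of Mir335 (-0.36), Mir298 (0.94) and Mir296 (-1.60) but called 0 of the 4 members, against 3 by the exact binomial test. The log2 ratio of Mir298 to Mir296 ranged from -0.62 without replicate 2 to 1.93 without replicate 1, so their order rests on which library is used. With no read minimum, Mir675 was tested and not called (p = 0.0177, adjusted p = 0.0572, exact binomial test). Counts of members with enough reads stayed at 4 under the other minimums. The adjustment over all neighbouring pairs was added after the data were seen and kept the call of the Gnas pair. No paired analysis was possible because there is 1 group. Depth limits Mir675 most: its 4 reads and 0 reads cannot be told from the floor.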

Other observations

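Only 4 of the 89 neighbouring pairs had a wider gap between their log2 ratios than Mir296 and Mir298, and they were looked up after the ranking was seen. These were Mir34c and Mir34b (3.72), Mir493 and Mir337 (2.76), Mir376b and Mir376a (2.72), and Mir141 and Mir200c (2.70). In each of the 4 pairs at least 1 gene had at most 30 reads in replicate 1. The same holds for the Gnas pair, where Mir298 had 28 reads in replicate 1. It also holds for pairs with small gaps, so it does not set the widest pairs apart. Examples are Mir199a-2 and Mir214 (12 reads of Mir199a-2 in replicate 1, gap 0.15) and Mir181a-1 and Mir181b-1 (13 reads of Mir181b-1, gap 0.13). Mir34c went from 30 to 500 reads while Mir34b went from 15 to 19, and Mir376b fell from 11 to 4 reads while Mir376a went from 18 to 43.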
